A study of Homo sapiens with 6 samples.

Results

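The 8 genes described here are CXCL1, CXCL2, CXCL3, CXCL5, CXCL8, CXCL16 and CCL20, which encode chemokines, and ICAM1, which encodes an adhesion receptor. They were chosen by name and make up 8 of the 20026 gene rows used. RNA sequencing compared 3 stable lines of HCT116, a human colon carcinoma cell line: a control, and lines that over-express either wild type TEAD4 or the mutant TEAD4 K178R, which by the usual notation carries an arginine in place of a lysine. No treatment, time or other allele is named in the labels for any line. Each line gave 2 libraries. What the control line carries, which vector drives the expression, and whether a line is 1 clone are not stated. Nothing says that the 2 libraries of a line are separate cultures, so the spread behind each p-value is that of these libraries and may be technical. The genotype field of wild type replicate 2 names TEAD5, whereas its title names wild type TEAD4, and it was kept in that group by its title.

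Chemokines are small secreted proteins that attract leukocytes by binding receptors on them. CXCL1, CXCL2, CXCL3, CXCL5 and CXCL8 (interleukin 8) act through CXCR2 and draw neutrophils, CCL20 acts through CCR6, and CXCL16 is made as a membrane protein that binds CXCR6 and is shed by metalloproteases. ICAM1 holds leukocytes through their integrins, LFA-1 among them. Transcription of many of these genes is known to be induced by NF-kB, a family of dimeric transcription factors activated by inflammatory receptors. TEAD4 binds DNA together with the coactivators YAP1 and TAZ, which the Hippo pathway restrains.

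The promoter sequences are shown first, because CXCL1, CXCL2, CXCL3 and CXCL8, 4 genes of 1 chromosomal cluster, were high in the wild type TEAD4 libraries with overlapping control and K178R libraries, while ICAM1 was high in both TEAD4 lines. Each is the 200 bases that end at the base before the RefSeq start in GRCh38.p14, 5′ to 3′ on the gene's own strand. For CXCL1 this is chr4:73869193-73869392 on the plus strand, for CXCL2 chr4:74099196-74099395 on the minus strand, for CXCL3 chr4:74038690-74038889 on the minus strand, for CXCL8 chr4:73740369-73740568 on the plus strand, and for ICAM1 chr19:10270920-10271119 on the plus strand. Capitals mark matches to the NF-kB consensus (CXCL1, CXCL2 and CXCL3), to GGAANTTCC (CXCL8 and ICAM1, and also within the capitals of the other genes) and to the AP-1 motif TGANTCA (in CXCL8, the first of its capital runs).
CXCL1: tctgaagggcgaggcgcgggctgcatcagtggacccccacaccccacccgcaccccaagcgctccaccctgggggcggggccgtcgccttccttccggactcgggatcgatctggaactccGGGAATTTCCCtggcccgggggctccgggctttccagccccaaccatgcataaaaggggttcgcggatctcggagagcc
CXCL2: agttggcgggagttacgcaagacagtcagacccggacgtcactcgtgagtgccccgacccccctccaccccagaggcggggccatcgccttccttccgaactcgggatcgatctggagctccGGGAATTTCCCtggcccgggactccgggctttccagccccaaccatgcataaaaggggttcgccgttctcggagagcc
CXCL3: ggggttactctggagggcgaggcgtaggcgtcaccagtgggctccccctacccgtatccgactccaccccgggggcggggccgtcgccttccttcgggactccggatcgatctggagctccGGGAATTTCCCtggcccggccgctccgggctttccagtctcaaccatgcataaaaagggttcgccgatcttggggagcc
CXCL8: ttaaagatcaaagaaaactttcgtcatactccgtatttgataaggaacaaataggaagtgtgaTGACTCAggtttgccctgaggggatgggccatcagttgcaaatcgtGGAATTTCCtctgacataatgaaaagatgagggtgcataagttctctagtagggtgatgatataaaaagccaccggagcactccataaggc
ICAM1: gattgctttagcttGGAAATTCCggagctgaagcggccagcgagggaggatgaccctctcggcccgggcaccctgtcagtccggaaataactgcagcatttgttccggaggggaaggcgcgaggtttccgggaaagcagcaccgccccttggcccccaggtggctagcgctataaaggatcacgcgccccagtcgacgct
Motifs were searched on both strands of the 250 bases before the start, and 7 of the 8 genes, all but CXCL16, were in the promoter table. CXCL1, CXCL2, CXCL3, CXCL5 and CCL20 held the NF-kB consensus, as did 9.96% of all 35116 promoters. In CXCL1, CXCL2, CXCL3 and CXCL5 the matches of the 2 strands overlap, and in CXCL1 they span bases 79 to 69 before the start. GGAANTTCC, a motif chosen after the sequences had been read, lies inside those matches and occurred also in CXCL8 (from base 91) and ICAM1 (from base 186). It occurred in 0.826% of all promoters. Because of how the motif was chosen, this share does not show that it is more frequent in these genes. TGANTCA was found in CXCL8 alone of the 7 genes (6.57% of all promoters), and the TEAD motif GGAATG in CCL20 alone (11.9%). The promoters of CXCL1, CXCL2 and CXCL3 were 83.3% to 87.5% identical over aligned bases, and each was 52.6% to 59.9% identical to that of CXCL8. A match is a description of the letters, and CXCL5 and CCL20, which held the NF-kB consensus, were listed at 0 in 5 of the 6 libraries.

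Values are FPKM, fragments scaled by both the length of the transcript and the size of the library, a scale on which genes can be compared per length. TEAD4 itself stood at 16.6 and 17.5 FPKM in the control libraries, 86.4 and 84.4 with wild type TEAD4, and 71.2 and 72.3 with K178R, so both TEAD4 lines stood above control, as labelled, which does not check the mutation itself. Tests used limma on log2(FPKM + 1) over the 11445 genes that reached 0.5 FPKM in 2 or more libraries, two-sided, with Benjamini-Hochberg adjusted p under 0.05 as the threshold, and a gene is said to have risen or fallen only when it passed. All log2 changes and standard errors are on this scale, where low genes appear to change less than their ratios of FPKM, and means are given ± SD with n = 2 libraries. Total FPKM per library lay between 283195 and 305329. Depth relative to control replicate 1 was inferred from the ratios of FPKM among genes of very low FPKM, and lay between 0.923 and 1.05. The number of reads is unknown, so counting error could not be computed. Of 10 colon epithelial markers, CDX1 was at 0 in all libraries, and VIL1 and LGALS4 stayed under 0.5 FPKM. Summed leukocyte markers lay at 4.34 to 4.66 FPKM in the control line, 5.28 to 5.31 with wild type TEAD4 and 2.69 to 3.21 with K178R, with 5 of 12, CD3E, CD3D, MS4A1, FCGR3A and S100A8, at 0 in all libraries. Most of this sum was CD68, with means of 3.28, 2.83 and 1.21 FPKM in the same order, and CORO1A, with 1.05, 2.31 and 1.62. With wild type TEAD4 against control CD68 did not pass and CORO1A rose. Summed fibroblast markers lay at 1.53 to 1.76, 3.64 to 3.78 and 1.73 to 1.90 FPKM in the same order of lines, mostly COL1A1, with 3 of 8, COL1A2, DCN and LUM, at 0 throughout. Summed endothelial markers lay at 2.02 to 2.13, 1.97 to 2.47 and 1.37 to 1.52, mostly ESAM, with SELE at 0, and summed colon epithelial markers at 2636 to 2682, 1797 to 1851 and 2854 to 2887, mostly KRT8, KRT18 and KRT19. KRT8 and KRT18 fell with wild type TEAD4 (log2 -0.75 and -0.60), EPCAM was at log2 -0.05 and did not pass, and CDX2 rose (log2 0.26).

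The 8 genes fell into 3 patterns. CXCL16 and ICAM1 rose in both TEAD4 lines. CXCL1, CXCL2 and CXCL3 rose with wild type TEAD4, did not pass the test with K178R, and were lower with K178R than with wild type TEAD4 in the direct comparison. CXCL8, CXCL5 and CCL20 stayed under 0.5 FPKM in all libraries and are given as low. CXCL8 was likewise highest with wild type TEAD4, though its K178R mean lay below its control mean rather than above it. In bulk RNA, more cells that express a gene and more RNA per cell cannot be told apart. The fibroblast and leukocyte sums were also highest with wild type TEAD4, though CD68 was not, and the epithelial sum was lowest, as given above. The part of these sums in the second pattern was not tested. Both wild type libraries lay above both control libraries for 6 of the 8 genes, as they did for 48% of the 15960 genes above 0 in at least 1 library. Both K178R libraries lay above both control libraries for 2 of the 8, CXCL16 and ICAM1, against 28.6% of those genes. Both wild type libraries lay above both K178R libraries for the same 6 genes, against 46.1%.

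**Figure D1:**
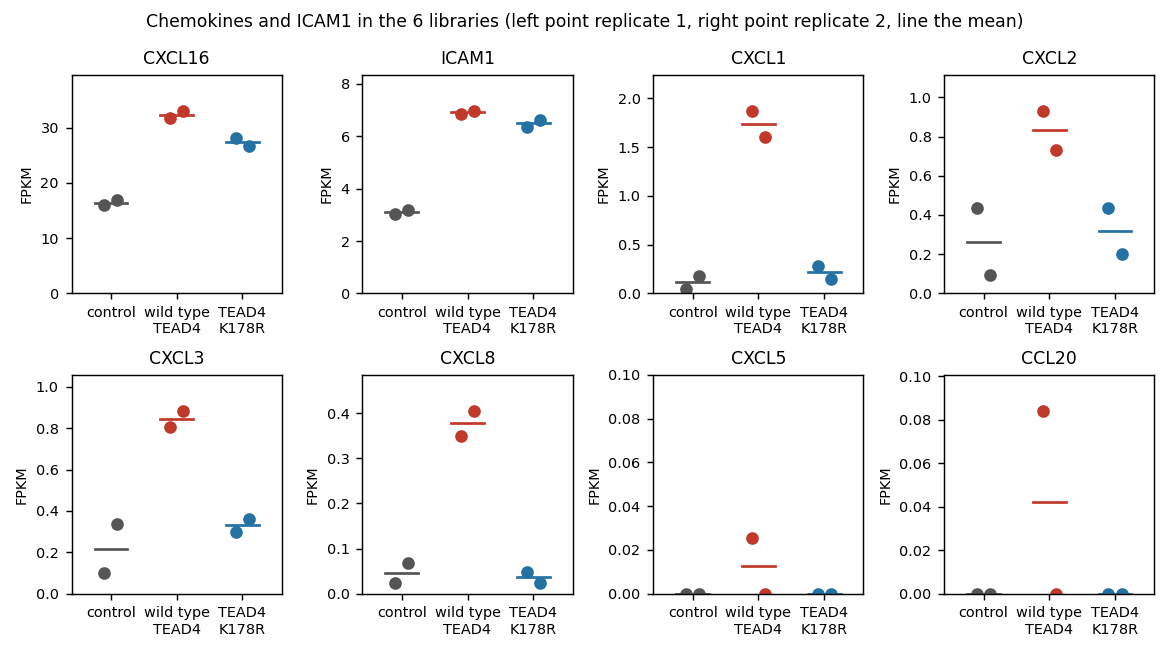
FPKM of each of the 8 genes (y axis, own scale in each panel, from 0) in the control, wild type TEAD4 and TEAD4 K178R lines (x axis); points are libraries and lines are means of 2. CXCL16 and ICAM1 were high in both TEAD4 lines, at means of 27.5 and 6.50 FPKM with K178R, whereas CXCL1, CXCL2, CXCL3 and CXCL8 were high with wild type TEAD4 and near the control with K178R.

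CXCL16, the membrane-bound chemokine, was the most abundant of the 8 in every line. It stood at 16.0 and 16.9 FPKM in the control libraries, 31.7 and 33.0 with wild type TEAD4, and 28.2 and 26.8 with K178R. The 3 groups did not overlap, and the order was control, K178R, wild type. The mean of 32.4 ± 0.938 FPKM with wild type TEAD4 was 1.97 times the control mean of 16.4 ± 0.603, and CXCL16 rose (log2 0.94, SE 0.04, limma adjusted p = 8.86e-06). With K178R the mean was 27.5 ± 0.978 FPKM, 1.67 times the control, again a rise (log2 0.71, SE 0.04, limma adjusted p = 4.16e-05). K178R was lower than wild type TEAD4 by a small amount (log2 -0.23, SE 0.04, limma adjusted p = 0.00421), and under median-of-ratios scaling this difference was log2 -0.13 (limma adjusted p = 0.0416). In GRCh38 (GENCODE release 29) CXCL16 spans bases 4733526 to 4739922 of chromosome 17, minus strand. Its 3′ end overlaps MED11, a Mediator subunit on the other strand, and whether the counting used strand is not given. MED11 stood at 3.83 and 4.80 FPKM in the control line, 3.59 and 6.03 with wild type TEAD4 and 3.77 and 3.70 with K178R, and it passed the test in none of the 3 comparisons.

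ICAM1 rose by a like amount in both TEAD4 lines. Its values were 3.03 and 3.18 FPKM in the control libraries, 6.86 and 6.97 with wild type TEAD4, and 6.35 and 6.64 with K178R. All 4 TEAD4 libraries lay above both control libraries, and both wild type libraries lay above both K178R libraries by a small margin. The mean of 6.91 ± 0.0787 FPKM with wild type TEAD4 was 2.23 times the control mean of 3.10 ± 0.108 (log2 0.95, SE 0.05, limma adjusted p = 1.71e-05). With K178R the mean of 6.50 ± 0.201 was 2.09 times the control (log2 0.87, SE 0.05, limma adjusted p = 3.21e-05). The difference of K178R from wild type TEAD4 was log2 -0.08 with a 95% interval from -0.19 to 0.04 (limma adjusted p = 0.225), which does not show that the lines are alike. Under median-of-ratios scaling the same difference was log2 0.01. In GRCh38 (GENCODE release 29) ICAM1 spans bases 10270835 to 10286615 of chromosome 19, plus strand, and an antisense gene overlaps it there, AC011511.2, whose reads cannot be told apart if strand was not used. Its neighbour ICAM5, a family member known from neurons, had means of 3.43 ± 0.548 FPKM in the control line, 5.10 ± 1.56 with wild type TEAD4, and 4.59 ± 0.471 with K178R. ICAM5 did not pass the test against control in either line (limma adjusted p = 0.0583 and 0.188). It passed as a rise in both when wild type replicate 2 was left out.

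CXCL1, also called GRO-alpha, had the largest change with wild type TEAD4 of the 5 genes tested. It stood at 0.0471 and 0.181 FPKM in the control libraries, 1.87 and 1.61 with wild type TEAD4, and 0.283 and 0.146 with K178R. Both wild type libraries were far above the other 4, and the control and K178R libraries overlapped. The mean of 1.74 ± 0.186 FPKM with wild type TEAD4 was 15.3 times the control mean of 0.114 ± 0.0944 and 8.11 times the K178R mean of 0.214 ± 0.0964. These ratios are loose, because control replicate 2 was 3.83 times control replicate 1. A value as small as 0.0471 FPKM may rest on very few fragments. CXCL1 rose against control (log2 1.30, SE 0.09, limma adjusted p = 7.73e-05), the 25th largest rise of the 11445 genes tested. Like CXCL3 and CXCL2 below, it passed the filter through the wild type libraries alone, the libraries in which it was high. The tests of these 3 genes and this rank are therefore descriptions and support nothing further. With K178R the difference from control was log2 0.13 with a 95% interval from -0.10 to 0.35 (limma adjusted p = 0.385). K178R lay below wild type TEAD4 (log2 -1.17, SE 0.09, limma adjusted p = 0.000187), and both of the significant differences kept their calls in all 19 alternative settings in which CXCL1 was tested.

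CXCL3, or GRO-gamma, had 0.101 and 0.335 FPKM in the control libraries, 0.805 and 0.882 with wild type TEAD4, and 0.299 and 0.361 with K178R. The wild type libraries again lay above the other 4, and the K178R values overlapped the control. The wild type mean of 0.843 ± 0.0549 FPKM was 3.88 times the control mean of 0.218 ± 0.166 (log2 0.61, SE 0.10, limma adjusted p = 0.00212). K178R differed from control by log2 0.13 (95% interval from -0.10 to 0.37, limma adjusted p = 0.373). Against wild type TEAD4 it was lower (log2 -0.47, SE 0.10, limma adjusted p = 0.00742), a call that ended with a pseudocount of 0.01 (limma adjusted p = 0.0634).

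CXCL2, or GRO-beta, was the least certain of the 3. It had 0.434 and 0.0922 FPKM in the control libraries, 0.931 and 0.734 with wild type TEAD4, and 0.435 and 0.199 with K178R. Wild type libraries were the highest, while the control libraries spanned most of the range below them. The wild type mean of 0.832 ± 0.139 FPKM was 3.16 times the control mean of 0.263 ± 0.242 (log2 0.55, SE 0.14, limma adjusted p = 0.0162), and K178R was lower than wild type TEAD4 (log2 -0.48, SE 0.14, limma adjusted p = 0.0299). K178R differed from control by log2 0.07 (95% interval from -0.27 to 0.40, limma adjusted p = 0.772). Without control replicate 2 the change with wild type TEAD4 was log2 0.35 (limma adjusted p = 0.0854), without wild type replicate 1, keeping the genes tested, log2 0.47 (limma adjusted p = 0.0799), and with no filter on low values the adjusted p was 0.0569. For K178R against wild type TEAD4 the call ended with pseudocounts of 0.1 and 0.01 and with no filter (limma adjusted p = 0.079, 0.119 and 0.0864). It also ended without K178R replicate 2 (log2 -0.35, limma adjusted p = 0.15) and, keeping the genes tested, without wild type replicate 1 (log2 -0.40, limma adjusted p = 0.128) or replicate 2 (log2 -0.56, limma adjusted p = 0.0535).

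**Figure D2:**
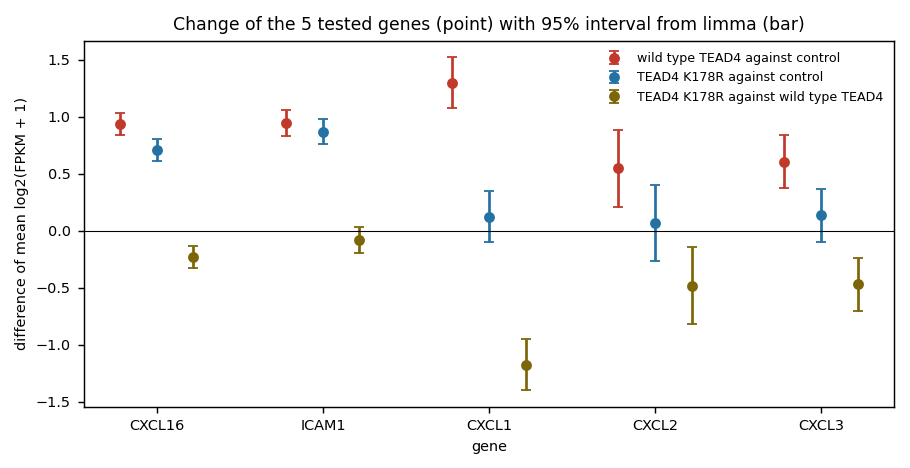
Difference of mean log2(FPKM + 1) (y axis) for the 5 tested genes (x axis) in the 3 comparisons, with 95% intervals from limma as bars. Changes with K178R against control lay at 0.71 for CXCL16 and 0.87 for ICAM1, with the interval of each of CXCL1, CXCL2 and CXCL3 crossing 0.

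CXCL1, CXCL2 and CXCL3 are close copies, and reads may be split between them in a way not given in the sources used here. Their longest coding transcripts in GENCODE release 29 were 90.5% identical between CXCL1 and CXCL2, 81.7% between CXCL1 and CXCL3 and 83.3% between CXCL2 and CXCL3, over aligned bases. Of all windows of 50 bases, 5.73% in CXCL1, 9.24% in CXCL2 and 5.26% in CXCL3 occurred without mismatch in one of the others, and 0% of windows of 100 bases did. The single values are therefore uncertain, and the 3 were also summed.

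The sum of CXCL1, CXCL2 and CXCL3 was 0.582 and 0.608 FPKM in the control libraries, 3.61 and 3.22 with wild type TEAD4, and 1.02 and 0.707 with K178R. The 3 groups did not overlap, and the control libraries, which differed for each gene alone, were close in the sum. CXCL2 made up 74.6% of the sum in control replicate 1 and 15.2% in control replicate 2, while CXCL3 made up 17.3% and 55.1%. CXCL1 took the larger part with wild type TEAD4, 51.9% and 49.9%, against 27.8% and 20.7% with K178R. The sum rose with wild type TEAD4 (log2 1.47, SE 0.09, limma adjusted p = 3.88e-05) and was lower with K178R than with wild type TEAD4 (log2 -1.25, SE 0.09, limma adjusted p = 0.000132). With K178R against control the difference was log2 0.22 with an unadjusted 95% interval from 0.01 to 0.43 (limma adjusted p = 0.13), and it passed the threshold when K178R replicate 2 was left out (log2 0.34, limma adjusted p = 0.0493).

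**Figure D3:**
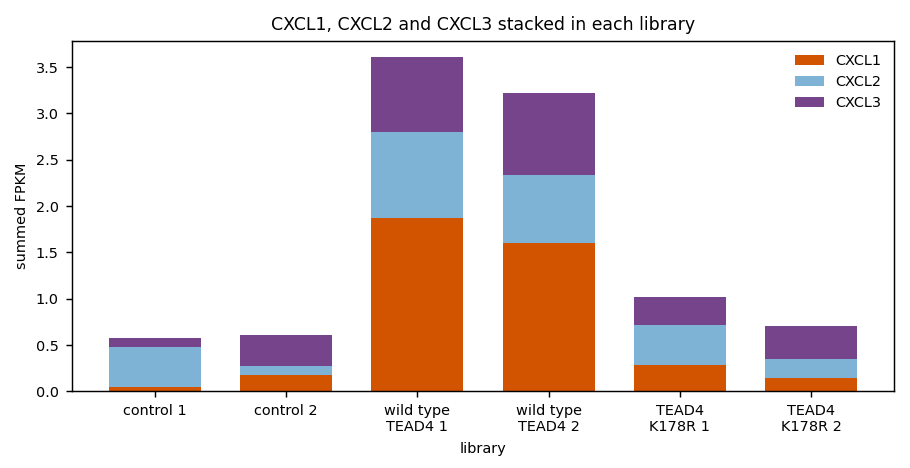
FPKM of CXCL1, CXCL2 and CXCL3 stacked (y axis, from 0) in each of the 6 libraries (x axis). The sums were 0.582 and 0.608 FPKM in the control line and 3.61 and 3.22 with wild type TEAD4, with CXCL1 the largest segment in both wild type libraries.

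CXCL8, the gene of interleukin 8, was low in all libraries. Its values were 0.0241 and 0.0678 FPKM in the control line, 0.350 and 0.404 with wild type TEAD4, and 0.0473 and 0.0245 with K178R. Both wild type libraries lay above the other 4, and control and K178R overlapped. The wild type mean of 0.377 ± 0.0381 was 8.20 times the control mean of 0.0460 ± 0.0309 and 10.5 times the K178R mean of 0.0359 ± 0.0161. Under the filter CXCL8 was not tested. With no filter on low values it passed with wild type TEAD4 against control (log2 0.40, SE 0.03, limma adjusted p = 0.00216) and was lower with K178R than with wild type TEAD4 (log2 -0.41, limma adjusted p = 0.00296), while K178R differed from control by log2 -0.01 (limma adjusted p = 0.848). The largest CXCL8 value was 16.8 times its smallest, and a value as small as 0.0241 FPKM may rest on very few fragments.

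The other neutrophil chemokine CXCL5 was listed at 0 in 5 libraries and at 0.0255 FPKM in wild type replicate 1. CCL20, the ligand of CCR6, was listed at 0 in 5 libraries and at 0.0838 FPKM in the same one. Neither was tested under the filter, and with no filter neither passed in any of the 3 comparisons. An exact 0 in such files can also be a failed estimate.

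Of the 8 genes, 5 passed the filter, and 5 of these 5 rose with wild type TEAD4, where 37.6% of all tested genes rose and 12.2% fell, 49.9% together. CXCL1, CXCL2 and CXCL3 passed the filter through the wild type libraries alone, the libraries in which they were high, so this count is a description and supports nothing further. With K178R 2 of the 5 rose, beside 11.7% of all tested genes, and none fell, beside 11.1% (22.8% together). Against wild type TEAD4, K178R was lower for 4 of the 5, beside 34.5% of all tested genes, and higher for none, beside 10.4% (44.9% together). The median log2 change of the 5 was 0.94, 0.13 and -0.47 in these comparisons, in that order, and that of all tested genes 0.09, 0.00 and -0.08. The comparisons share libraries and are not independent of each other. Of all genes called with wild type TEAD4, 75.5% were higher, and this share was 50.8% under median-of-ratios scaling and 59.5% under upper-quartile scaling, with 5 of the 5 genes higher under both.

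The order of the levels was the same for the upper ranks of each line. CXCL16 came first and ICAM1 second in all 3 lines, with values that did not overlap those of any other of the 8. In the control line CXCL2, CXCL3 and CXCL1 followed at 0.263, 0.218 and 0.114 FPKM, within their spread of each other. With wild type TEAD4 CXCL1 came next, above both others in both libraries, and CXCL3 and CXCL2, at 0.843 and 0.832 FPKM, overlapped. With K178R CXCL3, CXCL2 and CXCL1, at 0.330, 0.317 and 0.214 FPKM, overlapped again. CXCL8 came sixth in each line.

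CXCL8, CXCL1, CXCL5, CXCL3 and CXCL2 lie in 1 cluster on chromosome 4. In GRCh38 (GENCODE release 29) CXCL8 spans 73740506 to 73743716 and CXCL1 73869393 to 73871242 on the plus strand. CXCL5 spans 73995642 to 73998779, CXCL3 74036589 to 74038807 and CXCL2 74097035 to 74099293 on the minus strand. CCL20 lies apart, at bases 227805739 to 227817564 of chromosome 2, plus strand. From CXCL8 to CXCL2 the cluster holds 9 coding genes over 359 kb. The other 4 of them, CXCL6, a further neutrophil chemokine, and the platelet chemokine genes PF4V1, PF4 and PPBP, were listed at 0 in all 6 libraries. Genes high with wild type TEAD4 thus stood at both ends of the cluster and within it, with genes listed at 0 between them.

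**Figure D4:**
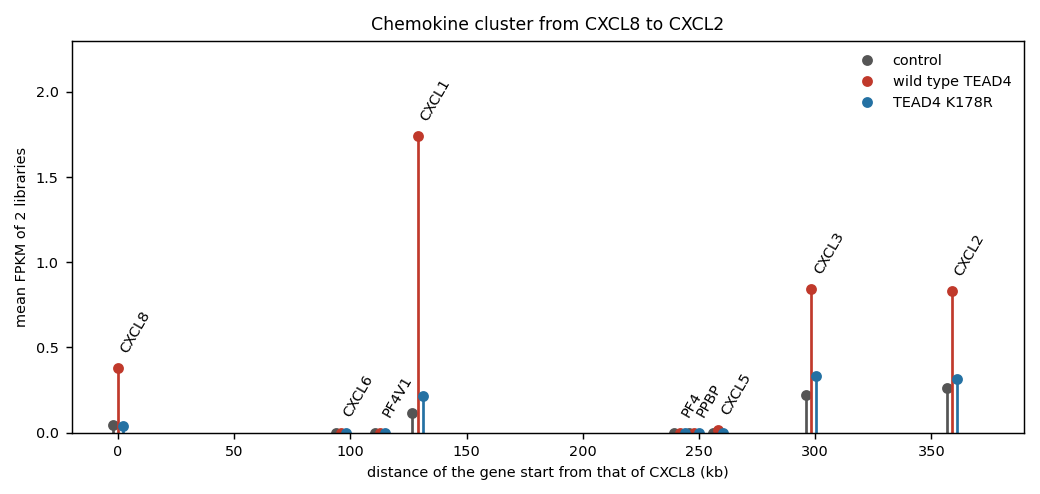
Mean FPKM of 2 libraries (y axis, from 0) of the 9 coding genes from CXCL8 to CXCL2, placed by the distance of each gene's start from that of CXCL8 in kb (x axis), with 1 stem per line. CXCL1 reached 1.74 FPKM with wild type TEAD4, and CXCL6, PF4V1, PF4 and PPBP were at 0 in all 3 lines.

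The genes around these chemokines were described by lists of receptors, adhesion partners, NF-kB components, cytokines, proteases and RNA-binding proteins. None of 37 other chemokine genes and none of 22 chemokine receptor genes reached 0.5 FPKM in 2 libraries, and 21 and 9 of them were at 0 in all libraries. The receptors of the members, named for that reason, were among them. CXCR2, the receptor of the neutrophil chemokines, reached at most 0.0815 FPKM, CCR6 at most 0.138, and CXCR6, the receptor of CXCL16, was at 0. ITGAL and ITGB2, whose products form LFA-1, stayed at or under 0.00914 and 0.0584 FPKM.

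Of 28 genes for NF-kB subunits, inhibitors and activators, 27 were tested. With wild type TEAD4 14 rose and 1 fell, beside 37.6% and 12.2% of all tested genes, and the median log2 change of the list was 0.23, beside 0.09. The 14 that rose became 12 under median-of-ratios scaling, without IKBKB and REL. The 1 that fell became 3 under median-of-ratios and 2 under upper-quartile scaling. RELB, the subunit of the non-canonical pathway, stood at 3.50 and 3.15 FPKM in the control libraries, 11.3 and 10.1 with wild type TEAD4, and 3.46 and 4.60 with K178R. It rose with wild type TEAD4 (log2 1.43, SE 0.11, limma adjusted p = 8.6e-05), and with K178R the difference was log2 0.21 (limma adjusted p = 0.208). NFKB2, the precursor of the partner of RELB, stood at 7.61 and 7.28 FPKM in the control libraries, 17.3 and 17.4 with wild type TEAD4, and 8.65 and 9.05 with K178R. Its rise was log2 1.12 with wild type TEAD4 and log2 0.22 with K178R (limma adjusted p = 0.00959), the latter lost without control replicate 2 or K178R replicate 2. BIRC3, a ubiquitin ligase of TNF receptor complexes that passed the filter through the wild type libraries alone, stood at 0.213 and 0.200, then 1.81 and 1.78, then 0.139 and 0.174 FPKM in the same order of lines.

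TNFAIP3, which encodes the inhibitor A20, rose in both lines. It stood at 0.369 and 0.425 FPKM in the control libraries, 2.02 and 2.02 with wild type TEAD4, and 1.06 and 1.17 with K178R (log2 0.60, SE 0.06, limma adjusted p = 0.000788 for K178R against control). NFKBIA, which encodes the inhibitor IkB-alpha, rose with wild type TEAD4 (log2 0.61, SE 0.05) and fell with K178R (log2 -0.25, SE 0.05, limma adjusted p = 0.00827). RELA, the main subunit of the canonical pathway, differed by log2 0.00 with wild type TEAD4 (limma adjusted p = 0.973). Under median-of-ratios scaling RELA passed as a fall. With K178R 5 genes of the list rose and 3 fell, beside 11.7% and 11.1% of all tested genes, with a median of log2 0.02. The 5 became 1, TNFAIP3, without control replicate 2 or K178R replicate 2, and 2 without control replicate 1. Against wild type TEAD4, K178R was lower for 15 genes of the list and higher for 2, beside 34.5% and 10.4% of all tested genes. Under both other scalings it was lower for 11 and higher for 4, and the 2 became 0 without either wild type library and 1 without either K178R library.

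**Figure D5:**
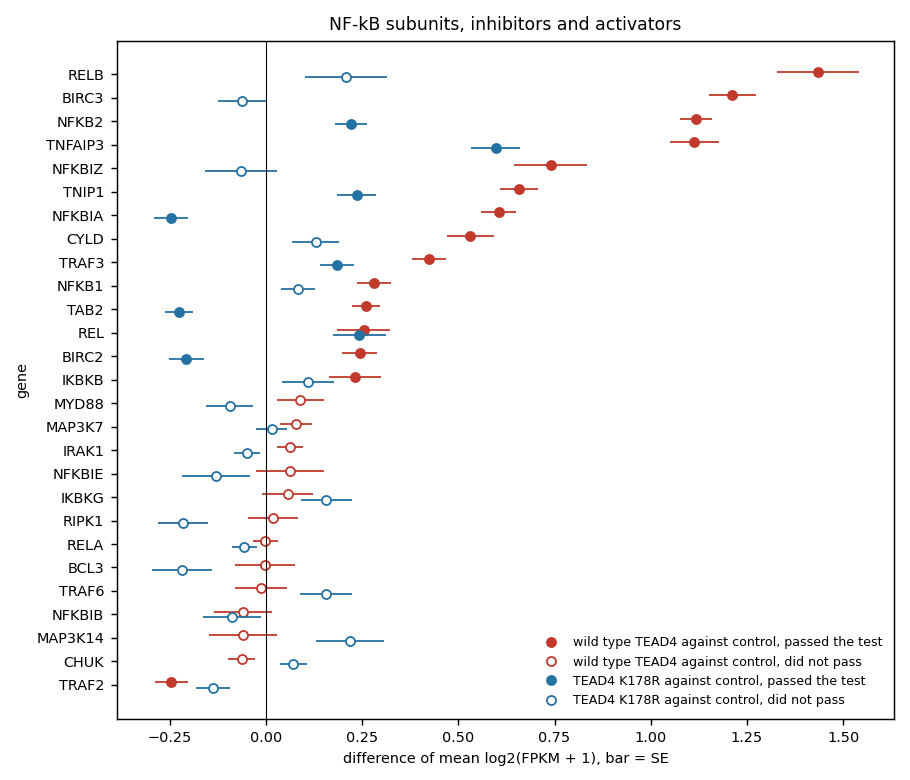
Difference of mean log2(FPKM + 1) from control (x axis, bars are SE) for the 27 tested NF-kB genes (y axis), with wild type TEAD4 and with TEAD4 K178R; filled points passed the test. RELB, BIRC3, NFKB2 and TNFAIP3 lead with wild type TEAD4 at 1.43, 1.21, 1.12 and 1.11, and TNFAIP3 has the largest rise with K178R at 0.60.

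Among 13 receptors that signal to NF-kB, 8 were tested, and 4 rose with wild type TEAD4 and none fell, beside 37.6% and 12.2% of all tested genes. The 4 became 2 without either wild type library, where TLR3 no longer passed the filter. TLR3, a sensor of double-stranded RNA, stood at 0.459 and 0.464 FPKM in the control libraries, 1.43 and 1.55 with wild type TEAD4, and 0.427 and 0.244 with K178R, so it passed the filter through the wild type libraries alone (log2 0.77 for wild type against control, limma adjusted p = 0.000345). IL17RC, a subunit of the interleukin 17 receptor, rose by log2 0.55 and CD40 by log2 0.48, and with K178R they differed from control by log2 -0.04 and 0.07 without passing. With K178R 1 gene of the list rose and none fell, beside 11.7% and 11.1% of all tested genes. The gene was TNFRSF12A, the TWEAK receptor (log2 0.33, limma adjusted p = 0.00356), which stood at log2 -0.01 with wild type TEAD4. Under either other scaling the 4 that rose with wild type TEAD4 became 3, without IL17RA.

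Of 21 cytokine genes 6 were tested, and 6 of these 6 rose with wild type TEAD4, beside 37.6% of all tested genes. They were 5 under either other scaling, and 4 without control replicate 2 or either wild type library. LTB, which encodes lymphotoxin-beta, was listed at 0 in both control libraries, at 1.15 and 1.87 FPKM with wild type TEAD4, and at 0.104 and 0 with K178R, and it passed the filter through the wild type libraries alone. IL18 rose in both lines, with 15.8 and 15.9 FPKM in the control libraries, 28.3 and 30.7 with wild type TEAD4, and 33.6 and 36.0 with K178R, where it was higher than with wild type TEAD4 (log2 0.23, limma adjusted p = 0.0075). IL32, another cytokine, rose in both lines as well (log2 1.01 and 0.80). TNFSF12, which encodes TWEAK, rose with wild type TEAD4 (log2 0.50, limma adjusted p = 0.0096), a call lost without control replicate 2.

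Proteases that shed or cut these proteins moved in both directions. Of 14 listed, 8 were tested, and with wild type TEAD4 5 rose and 2 fell, beside 37.6% and 12.2% of all tested genes. The 5 became 3 under both other scalings, without ADAM17 and CTSB, a lysosomal protease, and also 3 without wild type replicate 1. ADAM10, which is known to shed CXCL16, did not pass in any comparison, with 19.7 and 20.4 FPKM in the control libraries, 20.8 and 20.6 with wild type TEAD4 and 20.9 and 19.7 with K178R. ADAM17, known to shed ICAM1, rose by log2 0.22 with wild type TEAD4 (limma adjusted p = 0.0173), a call lost under both other scalings and without control replicate 2 or wild type replicate 1. MMP14, a membrane-type matrix metalloprotease, rose with wild type TEAD4 (log2 0.58), and DPP4, an exopeptidase that trims chemokines, fell in both lines (log2 -0.71 and -0.83). With K178R 1 protease rose, ADAM15 (log2 0.36), and 3 fell, beside 11.7% and 11.1% of all tested genes.

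All 10 genes for proteins that control the stability of AU-rich transcripts were tested, and with wild type TEAD4 3 rose and 3 fell, beside 37.6% and 12.2% of all tested genes. ZFP36L1, which promotes the decay of such transcripts, rose in both lines (log2 0.44 and 0.60), and its relative ZFP36L2 fell in both (log2 -0.56 and -0.40). ZC3H12A, the ribonuclease Regnase-1, rose with wild type TEAD4 (log2 0.49). Under both other scalings 2 rose and 5 fell with wild type TEAD4. Of the 3 that rose, MAPKAPK2 no longer passed when any 1 control or wild type library was left out. Of the 3 that fell, KHSRP no longer passed when either control library or wild type replicate 2 was left out. ZFP36, which had not passed, did so as a fall without control replicate 1. With K178R 2 rose and 2 fell, beside 11.7% and 11.1% of all tested genes. The 2 that rose became 1, ZFP36L1, under both other scalings. The other, HNRNPD, also lost its call when any 1 control or K178R library was left out. Of the 2 that fell, KHSRP no longer passed when either control library or K178R replicate 1 was left out. Without control replicate 1 ZFP36 passed as a fall here too.

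Of 17 further ICAM family members, integrins and other adhesion partners, 8 were tested. With wild type TEAD4 2 rose, beside 37.6% of all tested genes, MUC1, a mucin known to bind ICAM1 (log2 0.31, limma adjusted p = 0.0207), and RDX (log2 0.11, limma adjusted p = 0.0414). The MUC1 call was lost when control replicate 2 or either wild type library was left out, and the RDX call under both other scalings. Leaving out control replicate 2 or wild type replicate 1 left 0 of the list risen, and the count was 1 without control replicate 1 or either K178R library, and 3 without wild type replicate 2. EZR, whose product ezrin links ICAM proteins to actin, rose with K178R (log2 0.24, limma adjusted p = 0.000286) and was at log2 -0.04 with wild type TEAD4. The latter did not pass, but it passed as a fall under both other scalings. VCAM1, another endothelial-type ligand of leukocyte integrins, was at 0 in all libraries.

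The genes most like each tested member were found by the Euclidean distance between 6 values of log2(FPKM + 1), centred on the control mean. A small distance on this scale does not mean a like ratio of FPKM. With wild type TEAD4 HES2 stood at 2.93 times its control mean, beside 15.3 for CXCL1, whose control values were very low and uneven. COL4A6 stood at 5.57 times its control mean, beside 2.23 for ICAM1. For CXCL1 the nearest genes were HES2 (distance 0.25) and EBI3 (0.26), and EBI3, a subunit of interleukin 27, stood at 0.266 and 0.360 FPKM in the control libraries, 2.12 and 1.81 with wild type TEAD4, and 0.328 and 0.339 with K178R. EBI3 passed the filter through the wild type libraries alone. For CXCL2 they were ULBP2 (0.20) and EML2 (0.22), and for CXCL3 LZTS3 (0.12) and LIN37 (0.13). For CXCL16 they were TNFAIP1 (0.15) and CA2 (0.15), a carbonic anhydrase with means of 15.4 FPKM in the control line, 29.1 with wild type TEAD4 and 24.9 with K178R. For ICAM1 they were COL4A6 (0.13), a collagen IV chain, and NKX1-2 (0.15), a homeobox gene. COL4A6 had means of 0.260, 1.45 and 1.33 FPKM in the same order of lines, and NKX1-2 had means of 4.03, 8.50 and 8.45.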

How the data were processed

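RNA of 3 HCT116 lines was sequenced in 2 libraries each, grouped by title. The authors deposited 1 table of FPKM values per library, with 20030 rows. The submitters' processing notes name Bowtie 0.12.2 and the build hg18. How FPKM were computed, on which annotation, with or without strand, and how reads with several matches were shared out is not given in the sources used here. Left out were 4 rows with a repeated identifier.

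FPKM are not counts, so limma 3.58.1 (R 4.3.3, with trend, no added scaling) was fitted to log2(FPKM + 1) of all 6 libraries and the 11445 genes that reached 0.5 FPKM in 2 or more libraries, with 3 residual degrees of freedom. The genes, the 8 lists (162 genes) and the 4 marker lists were chosen with earlier results of these data known. Named genes are the 8 members, up to 4 genes per list and comparison with the largest change among those called, the 2 genes nearest to each tested member, TEAD4, and genes named in the text for their role or place. Alternatives were pseudocounts of 0.1 and 0.01, 2 filters, 2 scalings, fits of 2 groups, a replicate block, averaged controls, no trend, and each library left out. Positions and transcripts are from GENCODE release 29, promoters from RefSeq.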

Additional observations from a re-analysis of the deposited data

How the results depend on the processing

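Directions held in every alternative run for each change that passed the threshold, and calls of CXCL1, CXCL16 and ICAM1 stayed on their side of it. With a pseudocount of 0.01, 2 of the 5 tested genes were lower with K178R than with wild type TEAD4. With at least 1 FPKM required in all 6 libraries, 2 genes were tested, 2 rose with wild type TEAD4 and 1 was lower with K178R. Leaving out 1 library gave 2 to 5 genes higher with wild type TEAD4 and 1 to 4 lower with K178R against wild type, the low ends when a wild type library was absent and 2 genes passed the filter; a group left with 1 library was assumed to vary like the others. With the genes tested kept, an alternative added after seeing the data, they were 4 to 5 and 3 to 4. The summed CXCL1, CXCL2 and CXCL3 with K178R against control ranged over log2 0.10 to 0.34 with 1 library left out.

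Counts over all genes moved more. Median-of-ratios scaling gave 2748 higher and 2659 lower with wild type TEAD4 (4309 and 1402 without), and 2403 higher and 2398 lower for K178R against wild type (1187 and 3952). Upper-quartile scaling gave 2163 lower and 1951 higher in these comparisons. For K178R against control (1342 higher, 1268 lower), averaged controls gave 660 and 568, and leaving out 1 library gave 732 to 1285 higher and 633 to 1259 lower; for the other comparisons these ranges were 3219 to 4200 and 982 to 1338, and 793 to 1102 and 2934 to 3775.

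The replicate numbers did not pair the libraries (correlations of deviations 0.02, -0.03 and 0.03). With the replicate block the members called were 5, 2 and 4 as without it, and all genes called were 4178 higher and 1334 lower, 1210 and 1154, and 1119 and 3847 in the 3 comparisons. The number of reads is unknown, which limits what can be said of CXCL1, CXCL2, CXCL3 and CXCL8 outside the wild type line.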

Other observations

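The genes next to the chromosome 4 cluster were looked up after the values of the cluster had been seen. On the side of CXCL2 follow MTHFD2L, a mitochondrial folate enzyme, and then EPGN, EREG and AREG, which encode ligands of the EGF receptor. EPGN stood at 0.0781 and 0.123 FPKM in the control libraries, 4.33 and 4.46 with wild type TEAD4, and 1.59 and 2.02 with K178R, so that it lay above control in both TEAD4 lines. EREG had means of 143.5, 170.4 and 190.9 FPKM in the same order of lines, and AREG means of 149.7, 223.3 and 195.3. MTHFD2L had means of 0.964, 1.08 and 1.22 FPKM. On the side of CXCL8, AFP and AFM were at 0 in all 6 libraries, and ALB and RASSF6 stayed under 0.186 FPKM.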
